A study of Macaca mulatta with 10 samples.

Results

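XBP1 and 9 other genes of the unfolded protein response were followed in sorted Tr1 cells of rhesus macaques, to ask whether the counts of XBP1 went with those of its pathway across monkeys and between cohorts. The 10 genes were taken by symbol (XBP1, ERN1, ATF6, EIF2AK3, ATF4, DDIT3, HSPA5, HSP90B1, CALR and PDIA4), and each was found in the table of 26484 genes. Tr1 cells, regulatory T cells that make interleukin-10, were sorted as CD4+ CD49b+ LAG-3+ cells from blood mononuclear cells that had been frozen, thawed and rested overnight. RNA was sequenced from 5 Cohort B and 5 Cohort C monkeys, 1 library per monkey, and the reads were mapped by the authors to the human genome hg38, so genes carry human symbols.

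Every monkey had been made diabetic with streptozotocin and had received an islet allograft from a donor matched at 1 MHC class II DRB allele, under transient immunosuppression with anti-CD40 antibody, rapamycin, tocilizumab (anti-IL-6 receptor) and etanercept (a soluble TNF receptor). Cohort C also received infusions of apoptotic donor leukocytes (ADL), and Cohort B did not. The labels place blood sampling at sacrifice, after rejection in Cohort B and at the planned end on day 365 in Cohort C, but by the study's account the grafts of Cohort B monkeys 13EP12 and 13EP8 were not rejected, and Cohort C monkey 15CP1 was kept beyond that end. Time after transplant and graft state were not separated from ADL infusion here.

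The unfolded protein response senses misfolded protein in the endoplasmic reticulum (ER) through IRE1 (gene ERN1), ATF6 and PERK (gene EIF2AK3). IRE1 splices XBP1 mRNA so that it encodes an active transcription factor, ATF6 is itself cleaved into one, and PERK slows translation while favouring that of ATF4, which raises DDIT3 (CHOP). Their targets include the ER chaperones HSPA5 (BiP), HSP90B1 (GRP94) and CALR (calreticulin) and the disulfide isomerase PDIA4, and the pathway is best known in secretory cells such as plasma cells. Counts per gene do not separate spliced from unspliced XBP1 mRNA.

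Depth differed far more between monkeys than between cohorts. Total counts ran from 6076 to 1392157 in Cohort B (median 455470) and from 66485 to 5895609 in Cohort C (median 968423). That Cohort C median is the library of monkey 14HP33, in which 87.0% of the counts fell on the MTRNR2L family, copies of a mitochondrial RNA. Outside that family the order of the medians was reversed, at 345879 counts in Cohort B (monkey 15CP6) and 126178 in Cohort C (14HP33). Levels are given below as raw counts, or as CPM, which are counts scaled to a common library size with edgeR's TMM factors, and 3 counts were taken as the floor of a library. That floor was 0.623 CPM in monkey 15CP1 and 119 CPM in monkey 14HP31.

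XBP1 was found in some libraries of both cohorts and was at 0 in others of both. In Cohort B, monkey 13EP8 had 96 XBP1 counts, and monkeys 13EP12, 14HP26, 14HP31 and 15CP6 had 0. In Cohort C, monkey 13EP5 had 502 counts, 15CP1 had 448, 14HP24 had 20, 14HP33 had 1 and 15CP4 had 0. On the CPM scale these are 73.4 in 13EP8, and 157, 93.0, 115, 14.2 and 0 in 13EP5, 15CP1, 14HP24, 14HP33 and 15CP4. Thus 3 of 5 Cohort C monkeys lay above the highest Cohort B monkey and 2 lay below it, so the cohorts overlapped. A count of 1 in 14HP33 is under the floor of that library. The study reported XBP1 transcripts as significantly higher in the Tr1 cells of Cohort C than in those of Cohort B. The study's source data list XBP1 values per monkey that differ from this table in Cohort B, and that place the Cohort C values on other monkeys. Which of them is right cannot be settled here, and the deposited counts were used as their labels assign them.

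The sensors were read in the deeper libraries of both cohorts, with no order between the cohorts. ERN1, the IRE1 kinase and nuclease, had 157, 112, 0, 0 and 100 counts in Cohort B monkeys 13EP12, 13EP8, 14HP26, 14HP31 and 15CP6, and 377, 0, 0, 680 and 0 in monkeys 13EP5, 14HP33, 14HP24, 15CP1 and 15CP4 of Cohort C. ERN1 was thus counted in 2 Cohort B libraries that held no XBP1, the mRNA that its protein splices, and was at 0 in 14HP24, which held 20 XBP1 counts. In the same order of monkeys, ATF6 had 83, 97, 0, 0 and 52 counts in Cohort B and 157, 0, 18, 496 and 0 in Cohort C. EIF2AK3, the PERK kinase, had 131, 39, 0, 0 and 0 counts in Cohort B and 556, 0, 4, 824 and 0 in Cohort C. For all 3 sensors monkeys 13EP12, 13EP8, 13EP5 and 15CP1 held most of the counts, and the libraries 14HP26, 14HP31, 14HP33 and 15CP4 held none.

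Among the other transcription factors, ATF4 followed the deep libraries and DDIT3 did so less. ATF4, which drives amino acid and redox genes, had 160, 239, 0, 0 and 178 counts in Cohort B and 1386, 0, 5, 1378 and 0 in Cohort C. DDIT3, which is tied to cell death under lasting stress, had 169, 86, 24, 0 and 2 counts in Cohort B and 270, 19, 0, 465 and 0 in Cohort C. DDIT3 was above the floor in 14HP26 and in 14HP33, where XBP1 and ATF4 were at 0 or 1, and was at 0 in 14HP24, where both XBP1 and ATF4 were counted.

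The chaperones were the most counted of the 10 genes. HSPA5, the ER member of the HSP70 family and the protein that holds the sensors inactive, had 666, 859, 4, 2 and 212 counts in Cohort B and 5148, 4, 19, 5227 and 0 in Cohort C. HSP90B1, the ER member of the HSP90 family, had 493, 781, 15, 0 and 1 counts in Cohort B and 4843, 1, 58, 2025 and 42 in Cohort C. CALR, a calcium-binding chaperone of glycoproteins, had 384, 464, 12, 0 and 32 counts in Cohort B and 3179, 0, 16, 2171 and 1 in Cohort C. The 3 chaperones did not keep 1 ratio, since in 15CP6 HSPA5 had 212 counts and HSP90B1 had 1, while in 15CP4 HSPA5 had 0 and HSP90B1 had 42. PDIA4, which forms disulfide bonds in folding proteins, had 18, 43, 0, 0 and 36 counts in Cohort B and 415, 0, 0, 346 and 0 in Cohort C. HSP90B2P, a pseudogene copy of HSP90B1, held 358 counts over the libraries, and reads may have been split between them.

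**Figure D1:**
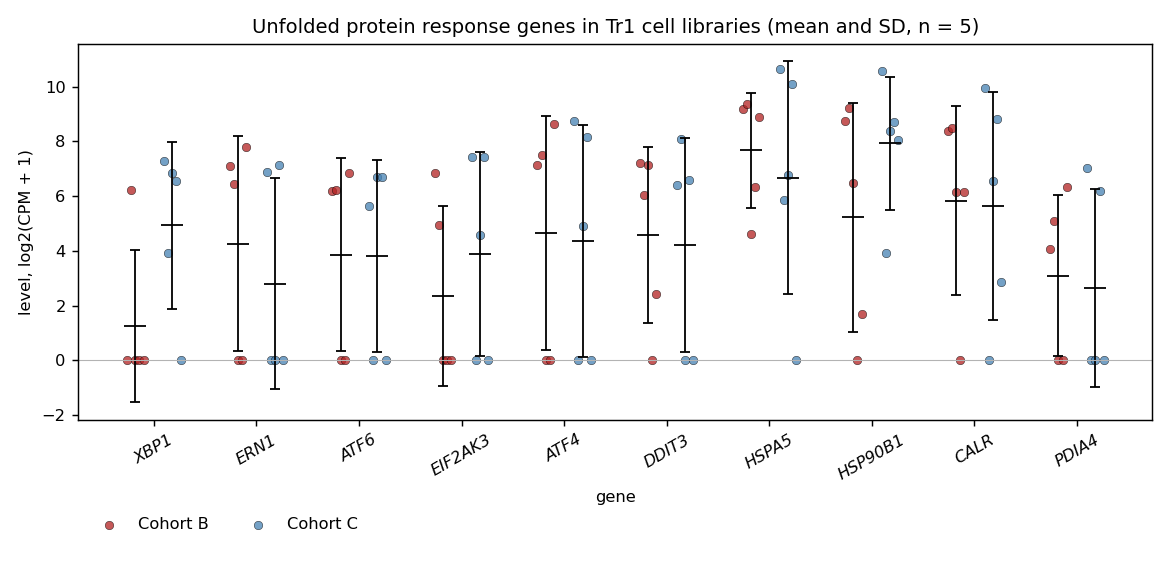
Levels of the 10 genes (horizontal axis) as log2(CPM + 1), with 1 point per monkey, Cohort B in red and Cohort C in blue, and the cohort mean ± SD as bars (n = 5 monkeys per cohort). Points of Cohort B and Cohort C overlap for each of the 10 genes, and many points lie at 0.

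The 10 genes together took 0.190, 0.202, 0.0483, 0.0329 and 0.135% of all counts in Cohort B monkeys 13EP12, 13EP8, 14HP26, 14HP31 and 15CP6. They took 0.504, 0.00258, 0.102, 0.238 and 0.0647% in monkeys 13EP5, 14HP33, 14HP24, 15CP1 and 15CP4 of Cohort C. Monkey 13EP5 had the highest share and 14HP33, the library filled by MTRNR2L counts, the lowest. All 10 genes had at least 1 count in 13EP8, 13EP5 and 15CP1, 9 did in 13EP12, 8 in 15CP6, 7 in 14HP24, 4 each in 14HP26 and 14HP33, 2 in 15CP4 and 1 in 14HP31.

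XBP1 held near 3% of the counts on the 10 genes in the 3 libraries with the most such counts. They were 1 of Cohort B and 2 of Cohort C. XBP1 made up 3.41% of 2816 counts in Cohort B monkey 13EP8 (95% Wilson interval 2.80 to 4.15%), 2.98% of 16833 in Cohort C monkey 13EP5 (2.74 to 3.25%) and 3.19% of 14060 in Cohort C monkey 15CP1 (2.91 to 3.49%). These intervals overlap. Intervals and floors here cover counting error only, since PCR copies are not separate molecules.

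Monkey 13EP12 came next in counts on the 10 genes, and across these 4 libraries the shares of CALR, HSPA5 and ATF4 moved less than that of XBP1, whose values included a 0. CALR took 15.4 to 18.9% of the counts on the 10 genes, HSPA5 29.5 to 37.2% and ATF4 7.08 to 9.80%, against 0 to 3.41% for XBP1. The rest of the 10 genes were less steady than CALR, HSPA5 and ATF4, relative to their own shares. HSP90B1 took 14.4 to 28.8%, ERN1 2.24 to 6.94% and ATF6 0.933 to 3.67%. EIF2AK3 took 1.38 to 5.86%, DDIT3 1.60 to 7.47% and PDIA4 0.796 to 2.47%. These libraries were set side by side after their values were seen, as a description.

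Outside those libraries the share of XBP1 did not stay near 3%. Cohort B monkey 13EP12 had 2261 counts on the 10 genes and 0 on XBP1, which allows a share of up to 0.133% at 3 counts (Wilson upper limit 0.170%), where the shares of the 3 libraries would give 69.5 to 79.8 XBP1 counts. Cohort B monkey 15CP6 had 0 of 613 counts, which allows up to 0.489% at 3 counts (Wilson upper limit 0.623%), against 18.8 to 21.6 counts at those shares. Cohort C monkey 14HP24 lay on the other side, with XBP1 at 14.3% of 140 counts (95% Wilson interval 9.44 to 21.0%), which is 20 counts against 3.69 to 4.24. In 13EP12 each of the other 9 genes was above 3 counts, and in 15CP6 6 of them were. In 14HP26, 14HP31, 14HP33 and 15CP4, fewer than 2 XBP1 counts would be due at those shares, so a lack of XBP1 was not detectable at this depth.

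**Figure D2:**
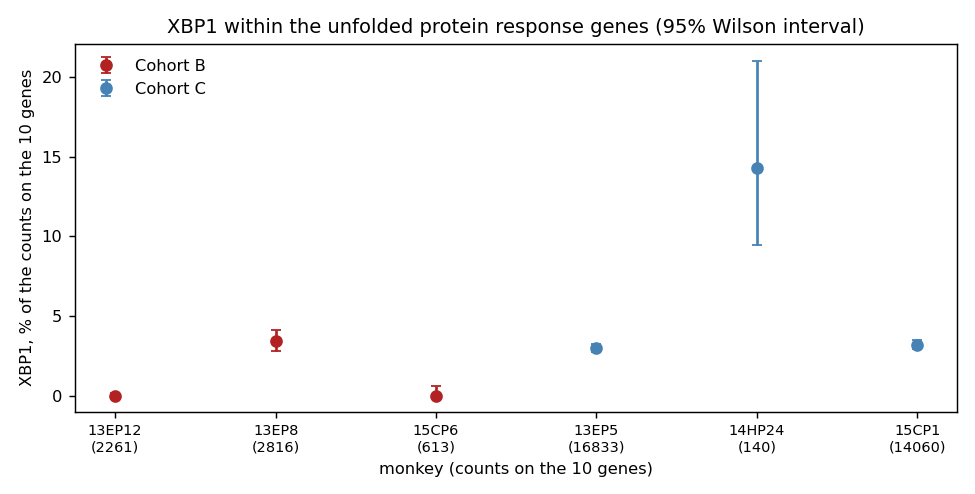
XBP1 as a percentage of the counts on the 10 genes, with 95% Wilson intervals, in the 6 monkeys with at least 100 such counts (number under each name). Monkeys 13EP8, 13EP5 and 15CP1 lie near 3%, 13EP12 and 15CP6 at 0 and 14HP24 at 14.3%.

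Few genes counted at least as highly as XBP1 elsewhere were at 0 in 13EP12. Of the 1277 genes that had at least as many counts as XBP1 in each of 13EP8, 13EP5 and 15CP1, 3 (0.235%) had 0 counts in 13EP12, namely XBP1, EIF3J (a subunit of translation initiation factor eIF3) and ZNF24 (a zinc finger protein). XBP1 belongs to this set by its definition and is at its lower bound, and the set also holds far more abundant genes such as HSPA5. In 15CP6, 190 of these genes (14.9%) were at 0. In 14HP24, 14HP33, 14HP26, 15CP4 and 14HP31 the share at 0 was 24, 63.3, 65.3, 73.8 and 87.7%. EIF3J and ZNF24 are named after their counts were seen, and these shares are a description, with no test.

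**Figure D3:**
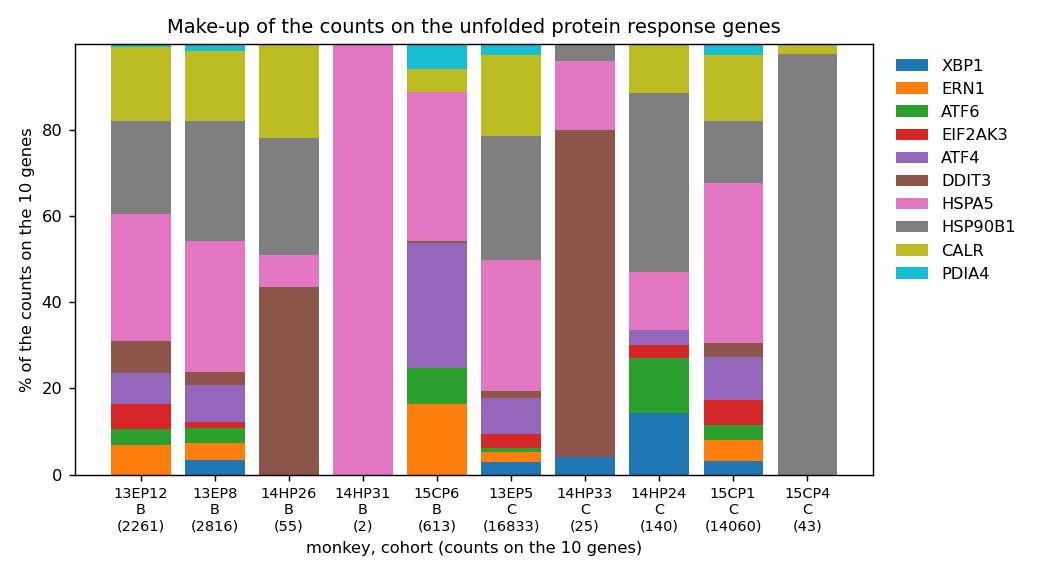
Makeup of the counts on the 10 genes in each monkey, as stacked percentages that sum to 100, with the cohorts side by side. HSPA5, HSP90B1 and CALR fill most of each bar in 13EP12, 13EP8, 13EP5 and 15CP1, and the bars of 14HP31 and 14HP33 rest on 2 and 25 counts.

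No test of XBP1 levels against those of the other genes was made over the 10 libraries, since XBP1 was at 0 in 5 of them and depth differed widely. As a description, XBP1 was above 3 counts in 13EP8, 13EP5, 14HP24 and 15CP1. Of the other 9 genes, 6 (ATF6, EIF2AK3, ATF4, HSPA5, HSP90B1 and CALR) were also above 3 counts in all 4 of these libraries, beside 2229 of 14168 genes tested (15.7%). ERN1, DDIT3 and PDIA4 were above 3 counts in 3 of the 4 and at 0 in 14HP24. None of the other 9 genes was above 3 counts in exactly these 4 libraries, as 109 genes (0.769%) were, since each was also counted in at least 1 library in which XBP1 was at 0.

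Against a wider set of pathway genes, the level of XBP1 varied more between the 3 libraries near 3%. Per 1000 counts on 87 further genes of ER stress signalling, folding, degradation, translocation and the PERK branch, XBP1 had 10.9 counts in 13EP8, 15.8 in 13EP5, 11.7 in 15CP1, 28.6 in 14HP24 and 4.63 in 14HP33, where the 1 count is under the floor of 13.9. Monkey 13EP12 had 7192 counts on those genes and 0 on XBP1, for which 3 counts would be 0.417 per 1000, and monkey 15CP6 had 2167 and 0, with a floor of 1.38. Per 1000 counts on housekeeping genes, XBP1 had 4.37 in 13EP8, 7.93 in 13EP5 and 4.64 in 15CP1.

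**Figure D4:**
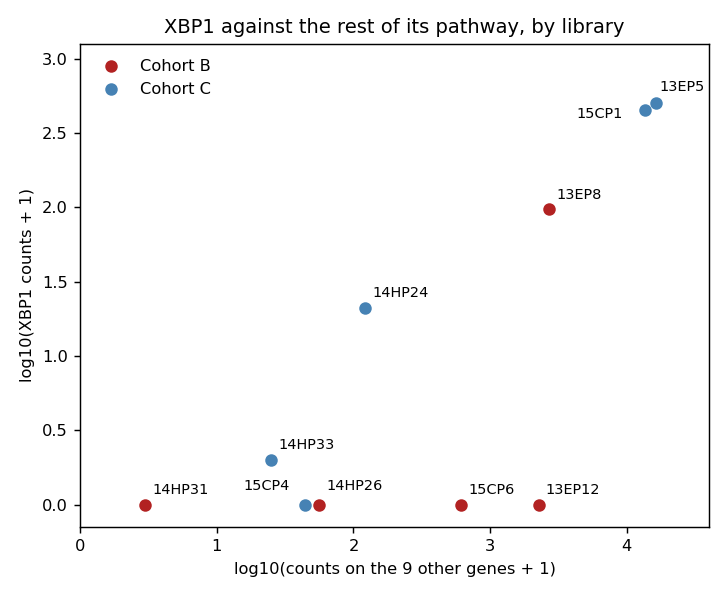
XBP1 counts of each monkey (vertical axis) against the counts on the other 9 genes of the unfolded protein response (horizontal axis), both as log10(counts + 1), with Cohort B in red and Cohort C in blue. Monkeys 13EP8, 13EP5 and 15CP1 hold 96, 502 and 448 XBP1 counts, while 13EP12, with a similar pathway count to 13EP8, holds 0.

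Ranked by Spearman's rho over the 10 libraries, genes with a pattern of CPM among the most like that of XBP1 were NAPG and PM20D2 (both 0.947), CTPS1, an enzyme of CTP synthesis (0.945), and TXNL4A, a splicing factor (0.932). This was over 7239 genes with more than 3 counts in at least 4 libraries, whose median rho was 0.38. The unfolded protein response genes stood lower in that ranking. EIF2AK3 had a rho of 0.70 (rank 619), CALR 0.65 (815), HSP90B1 0.63 (926), HSPA5 0.63 (929) and ATF4 0.51 (2311). PDIA4 had 0.38, ATF6 0.36, ERN1 0.10 (rank 6303) and DDIT3 0.02 (6733). These values describe 10 points that share large differences in depth and many zeros, and carry no p.

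Plasma cells and B cells, which use XBP1 heavily, are one of the other cell types that a sorted sample could hold. JCHAIN, the antibody joining chain, had 89 counts in 13EP8, 1447 in 13EP5 and 153 in 15CP1, and 0 in the other libraries. These libraries had the most raw XBP1 counts, and also the highest total counts. By CPM, XBP1 in 14HP24 (115) lay above that in 13EP8 (73.4) and 15CP1 (93.0), with JCHAIN at 0 in 14HP24. MZB1, an ER co-chaperone of these cells, had 70 counts in 13EP5 and 16 in 15CP1, and 0 elsewhere. The 9 B and plasma cell markers summed to 0 to 191 counts per library in Cohort B and to 0 to 1595 in Cohort C. Among them, MS4A1 was at 0 in 13EP5 but had 43 counts in 13EP12, 96 in 13EP8 and 199 in 15CP1. CD79A had 21 counts in 13EP12 and 10 in 14HP26, both without XBP1, beside 4 in 13EP8, 54 in 13EP5 and 43 in 15CP1. In 14HP24 all 9 markers were at 0 beside 20 XBP1 counts, and in 13EP12 they summed to 64 beside 0. The part of these cells in the XBP1 counts was not tested, and in bulk RNA fewer cells of a type and less RNA per cell cannot be told apart.

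Of the sort markers, LAG3 and ITGA2 had few counts in any library, while CD4 had more in the deeper libraries. CD4 had 338, 94, 0, 0 and 13 counts in Cohort B and 772, 0, 19, 766 and 0 in Cohort C. LAG3 had 10 counts in 13EP12, 16 in 13EP5 and 12 in 15CP1 and 0 elsewhere, and ITGA2 (CD49b) had 25 in 13EP12, 37 in 15CP1, 4 in 13EP5 and 2 in 13EP8. General T cell markers summed to 0 to 2592 counts per library in Cohort B and to 11 to 11792 in Cohort C. Monocyte markers reached 489 and 2420 counts in the 2 cohorts, CD8 and NK cell markers 258 and 392, platelet markers 26 and 487, and erythroid markers 188 and 93, each from a low of 0.

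Between the cohorts, none of the 10 genes passed a test. By edgeR's quasi-likelihood test, run on 14168 genes with 10 or more summed counts, 0 of the 10 genes had an adjusted p under 0.05, beside 0 of all genes (0%). At an unadjusted p under 0.05 there were 0 of the 10 and 2923 of all genes (20.6%), and at an unadjusted p under 0.01 with a 1.5-fold change there were 0 of the 10 and 911 of all genes (6.43%), which split into 1.07% higher and 5.36% lower in Cohort C. DESeq2 gave an adjusted p under 0.05 for 2 genes, neither of them among the 10.

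In edgeR's fit XBP1 had the largest difference among the 10, and its error was nearly as large. Its log2 fold change, Cohort C over Cohort B, was 2.25 (SE 2.14, edgeR's quasi-likelihood test, adjusted p = 0.799). Its mean log2(CPM + 1) was 4.93 ± 3.05 in Cohort C and 1.24 ± 2.78 in Cohort B (SD, n = 5 monkeys each), a difference of 3.69 (exact permutation test, two-sided p = 0.0873). Adjusted over all genes that p was 1, and 5 monkeys against 5 cannot give a p below 0.00794. The Cohort B level rests on 13EP8, and without that monkey all of Cohort B was at 0, so the fitted log2 fold change of 9.55 (edgeR, adjusted p = 0.187) is no measure of size. The exact permutation p was 0.0476 without 13EP8, the highest Cohort B monkey, and 0.0238 without 15CP4, the lowest Cohort C monkey. With any other monkey left out, the exact permutation p ran from 0.0873 to 0.127, no lower than with all monkeys. Each of these p-values was 1 after adjustment over all genes.

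The sensors did not share a direction. EIF2AK3 had a log2 fold change of 1.30 (SE 2.06), ERN1 of -0.77 (SE 2.01) and ATF6 of -0.06 (SE 2.03). ATF4 was at 0.05 (SE 1.94) and DDIT3 at 0.29 (SE 2.004), both near no difference and with errors that would hide a change of several fold.

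The chaperones had positive fitted values, none larger than its error. HSP90B1 was at 1.18 (SE 1.90), CALR at 0.88 (SE 1.92), HSPA5 at 0.66 (SE 1.86) and PDIA4 at 0.61 (SE 2.06). By mean log2(CPM + 1), HSP90B1 was higher in Cohort C by 2.70 (exact permutation test, two-sided p = 0.246), but HSPA5 was at -0.995 (exact permutation p = 0.706) and CALR at -0.20 (exact permutation p = 0.984). The sign for HSPA5, CALR, PDIA4, ATF4 and DDIT3 differed between edgeR's fit and the mean over monkeys. Leaving out 13EP5 also made the fitted values of HSPA5, CALR, PDIA4 and ATF4 negative, at -0.32, -0.35, -0.58 and -0.93. By exact permutation 0 of the 10 genes had an unadjusted p under 0.05, beside 34 of all genes (0.24%).

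**Figure D5:**
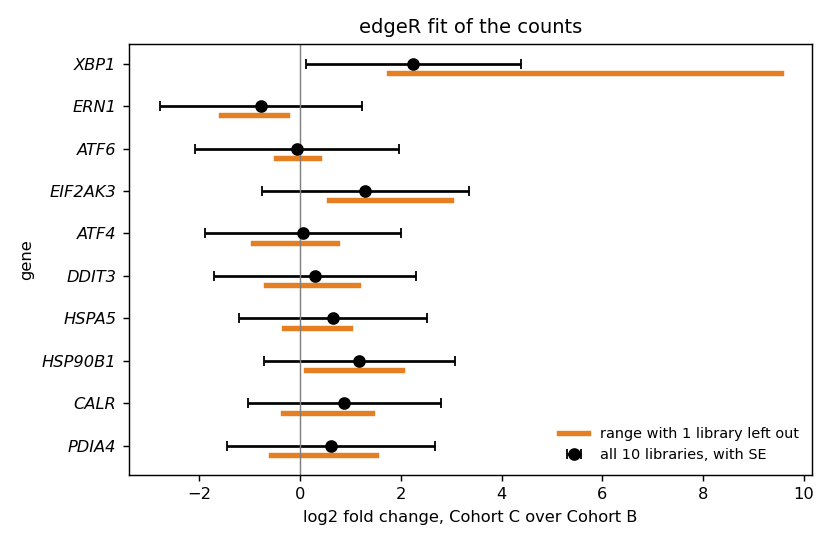
Log2 fold change of each of the 10 genes, Cohort C over Cohort B, from edgeR's fit, as points with bars of ± 1 SE (n = 5 monkeys per cohort), and as orange lines the range of the values with 1 library left out. XBP1 has the highest value at 2.25 and ERN1 the lowest at -0.77, the SE bar of XBP1 alone does not reach 0, and its orange line runs to 9.55.

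Of the 10 genes, 8 had a positive fitted log2 fold change, beside 53.5% of all genes tested, and their median was 0.63 beside 0.16. The cohorts overlapped in each of the 10 genes, and cohorts that did not overlap were found for 2 of 14168 genes (0.0141%). The count of positive values depended on the scaling and on single libraries, from 3 in limma-voom to 9 with DESeq2, and was 4 without 13EP5.

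Further genes of the pathway were grouped into 5 lists, of which 84 of 87 genes were tested, with 47 positive and a median of 0.27. The signalling list had 10 of 18 positive (median 0.09). In it NFYA, a factor that binds ER stress elements, had 159, 76, 7, 0 and 36 counts in Cohort B and 417, 4, 7, 489 and 0 in Cohort C (log2 fold change 0.03). EIF2AK4, a kinase that acts on eIF2 when amino acids are scarce, was at -1.06, and CREB3, an ER membrane-bound transcription factor, at -2.94 (SE 2.19). ATF6B, the relative of ATF6, was the one gene of the 5 lists past the unadjusted filter (log2 fold change -4.54, SE 1.73, edgeR, adjusted p = 0.141), on 12 counts in 13EP8 and 0 in every other library.

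The folding list had 12 of 20 positive (median 0.47). CANX, the membrane-bound partner of calreticulin, had 187, 486, 74, 0 and 9 counts in Cohort B and 2035, 58, 43, 1592 and 0 in Cohort C (log2 fold change 1.03, SE 1.90). P4HB, the main disulfide isomerase, was at 1.46 (SE 2.03) and HYOU1, a large ER chaperone, at 1.53 (SE 2.09). ER-associated degradation, which removes misfolded protein, was the list with most negative values, 12 of 16 (median -0.41), and 0 of its genes passed the filter. In it the ATPase VCP was at 0.33, the lectin OS9 at -0.07 and the adaptor SEL1L at -1.20 (SE 2.01).

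The translocation list had 10 of 17 positive (median 0.15), with SRPR, the receptor of the signal recognition particle, at 0.83, the signal peptidase subunit SPCS3 at 0.33 and TRAM1, a translocon partner, at -0.14. Genes downstream of PERK and ATF4 had 11 of 13 positive (median 0.60). PPP1R15A, the stress-induced phosphatase subunit that restores translation, had 358, 398, 0, 1 and 0 counts in Cohort B and 2050, 0, 51, 2071 and 46 in Cohort C (log2 fold change 1.32, SE 1.94). PPP1R15B, the constitutive relative of PPP1R15A, was at 0.66. ATF3, a stress-induced factor, had 71, 1, 0, 0 and 15 counts in Cohort B and 332, 0, 0, 235 and 45 in Cohort C (log2 fold change 2.08, SE 2.12). In monkey 15CP4, PPP1R15A and ATF3 were counted while XBP1, HSPA5, ATF4 and DDIT3 were at 0.

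Levels were compared between genes per length, in the deposited FPKM values, which are set within each library only. In the 3 libraries with a value for each of the 10 genes, HSPA5, HSP90B1, CALR and ATF4 held the highest 4 places. In Cohort B monkey 13EP8 these were HSP90B1 at 214, HSPA5 at 208, CALR at 178 and ATF4 at 88.3 FPKM, with XBP1 at place 5 with 29.8 FPKM and EIF2AK3 lowest at 0.525. In Cohort C monkey 13EP5 the order was HSP90B1 at 4495, CALR at 3037 below HSPA5, and ATF4 at 1551, with DDIT3 at 715 and XBP1 at place 6 with 579. In Cohort C monkey 15CP1 it was HSPA5 at 285, CALR at 226, HSP90B1 at 149 and ATF4 at 126, with XBP1 at place 7 with 46.8. Neighbours in this order traded places between libraries. In 13EP12 DDIT3 was highest at 211 FPKM, and in 15CP6 ATF4 was at 123 and HSP90B1 at 0.

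By limma on log2(FPKM + 1), 0 of the 10 genes passed, beside 0 of 10307 genes tested (0%), and 29 of all genes (0.281%) had an unadjusted p under 0.05. XBP1 differed by 1.96 (SE 1.82), HSP90B1 by 2.90 (SE 2.07) and EIF2AK3 by 2.18 (SE 1.70), all higher in Cohort C. HSPA5 was at -0.19 and ERN1 at -0.45. Adjusted p-values of the 10 ran from 0.992 to 0.994 by limma. Without 13EP5 the values were 0.41 for XBP1, 1.54 for HSP90B1, 0.83 for EIF2AK3, -1.91 for HSPA5 and -1.69 for ERN1. These differences are on the log2(FPKM + 1) scale, which understates the change of low genes. FPKM were not rescaled between libraries, although their sum ran from 1.17e+06 in 14HP33 to 1.04e+07 in 13EP5. The differences between cohorts by FPKM therefore also carry differences in scale between libraries.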

How the data were processed

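RNA of sorted Tr1 cells was sequenced as 50 bp paired-end reads from stranded libraries. Per the labels and the study's methods, the authors aligned reads with HISAT2 2.0.2 against human hg38 and deposited raw counts per gene. The name of the count table points to Subread, and the counting options on strand and on reads with several matches are not given in the sources used here. A second deposited table holds FPKM per gene, made by the authors with Cuffdiff 2.2.1.

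Cohorts were compared from the counts in edgeR 4.0.16 (R 4.3.3), with TMM scaling and the quasi-likelihood test, over genes with at least 10 summed counts. Each SE came from the log2 fold change and its test statistic. FPKM values, as log2(FPKM + 1), were tested with limma 3.58.1 over genes with a mean of at least 1. A two-sided exact permutation test on log2(CPM + 1), over every assignment of monkeys to cohorts (numpy 2.4.6), was adjusted by Benjamini-Hochberg over all genes tested. Wilson intervals were computed with scipy 1.17.1. Alternatives included DESeq2 1.42.0, limma-voom, other scalings and filters, and leaving out each library. Tests were tested on simulated data.

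The 10 genes, the lists and the tests were chosen with earlier results of these data known. Named pathway genes were the 3 of each list detected in most libraries, and those past the unadjusted filter. Replicate numbers mark different monkeys, which were the replicates. Results for some single genes among those most like XBP1 are not reported here.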

Additional observations from a re-analysis of the deposited data

Results flagged for a closer look

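Among 20 sets of 5 monkeys (each of the 10 genes in each cohort), 2 held a monkey that stood apart by Dixon's criterion at 0.71, and chance alone gives about 1 in 20 such sets. The level of XBP1 in monkey 13EP8, a log2(CPM + 1) of 6.22, stood apart in Cohort B with a gap of 1 of the whole range, since the other 4 monkeys were at 0, a case for which that chance rate does not apply. The level of CALR in monkey 14HP31 was 0 and stood apart in Cohort B, with a gap of 0.727 of the range, and 14HP31 had the lowest total, 6076 counts.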

How the results depend on the processing

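The number of genes past the unadjusted filter (911 by edgeR) was 563 with DESeq2 size factors, 341 by edgeR's exact test, 98 with the index suffix as covariate, 67 by limma-voom, 22 by DESeq2, 10 with filterByExpr and 111 in the 5 libraries with over 200000 counts outside MTRNR2L, a choice made after the data were seen. Adjusted calls numbered 2 by DESeq2 and 5 in those libraries. Leaving out 1 library gave 76 to 695 past the filter and 0 to 1 adjusted. The replicate numbers were shared by different monkeys (correlations from -0.43 to 0.38, and 0 of 5 Cohort C libraries correlated best with the Cohort B library of its own number), and with them as a block 0 genes passed the filter. ATF6 turned to 0.13 with DESeq2 size factors and by DESeq2, ATF4 to -0.080 with library size only, -0.41 with filterByExpr and -0.90 by limma-voom. DDIT3 turned to -1.27 with library size only, -0.65 by limma-voom, -0.52 with the block and -0.75 with the index covariate. Limma-voom also turned HSPA5 (-0.97), CALR (-0.65) and PDIA4 (-0.95), and the block turned CALR (-0.27) and PDIA4 (-0.55). With a pseudocount of 0.1, DDIT3 by FPKM was -0.29. Counting libraries with at least 1 XBP1 count, 2 of the other 9 genes were present in all of them, beside 724 of 14168 genes tested (5.11%). At 10 or more counts, 4 of the other 9 genes were, beside 1551 genes (10.9%). Leaving out 1 library, fitted values ran from -0.93 to 0.74 for ATF4, -0.47 to 0.37 for ATF6, -0.35 to 1.43 for CALR, -0.67 to 1.15 for DDIT3, -0.32 to 0.99 for HSPA5 and -0.58 to 1.497 for PDIA4. Differences in mean log2(CPM + 1) then ran from -1.45 to 0.80 for ATF4, -1.01 to 0.91 for ATF6, -1.66 to 1.21 for CALR, -1.49 to 0.70 for DDIT3, -1.99 to 0.67 for HSPA5 and -1.55 to 0.36 for PDIA4. By FPKM they ran from -1.36 to 1.29 for ATF4, -0.65 to 2.25 for CALR, -1.26 to 1.49 for DDIT3, -1.69 to 0.12 for ERN1, -1.91 to 1.03 for HSPA5 and -0.49 to 1.64 for PDIA4. The cause of these changes was not tested. XBP1 stayed positive under each alternative in which it was tested, from 1.76 to 9.55 by edgeR and from 0.41 to 2.95 by FPKM with 1 library left out, and by counts was 2.97 by limma-voom and 6.41 with the block. Filtering with filterByExpr removed it.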

Other observations

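The deposited FPKM table and count table disagreed on which genes were present. Of 65 pairs of one of the 10 genes and a library with at least 1 count, 10 were listed at 0 FPKM, and 6 of these had more than 3 counts. They were XBP1 in 14HP24 (20 counts), ATF6 in 15CP6 (52), DDIT3 in 14HP26 (24) and in 14HP33 (19), and HSPA5 (4) and CALR (12) in 14HP26. No pair was at 0 counts with an FPKM above 0.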
